A study of Oryza sativa with 9 samples.

Results

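A set of 199 rice genes had more transcript in the young panicles of both transgenic lines of *GSE9* than in those of the wild type. Yet 1 line overexpresses *GSE9* and the other is a CRISPR/Cas9 knockout of it. The 199 genes were chosen by their measured FPKM, out of the 37863 rows of an RNA-seq table. FPKM is a read count scaled by gene length and library size. A row had to average 2 FPKM or more over the 9 libraries, the lowest value in the transgenic lines had to exceed its highest value in the wild type, and the mean of log2(FPKM + 1) had to lie at least 0.6 above the wild type in each line. Rows from Os07g0506000 to Os07g0520000 were left out, which removed 2 rows. Because the comparisons with the wild type chose these genes, their differences from it are descriptions and carry no test.

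The transgenic lines were ZH11-OE-1, which expresses the coding sequence of *GSE9* from a ubiquitin promoter, and ZH11-Cas9-1, a CRISPR/Cas9 knockout of *GSE9* in which a ubiquitin promoter drives Cas9 and U3b promoters drive the guides. They were compared with the untransformed *japonica* variety Zhonghua11 (ZH11), in whose background both lines were made with Agrobacterium. Each genotype had 3 libraries of total panicle RNA, described by the study as independent repeats, and the labels place the harvest ahead of heading whereas the methods place it ahead of anthesis. Each transgenic genotype is 1 line. What both lines share beyond *GSE9*, including the transformation and a ubiquitin promoter construct, cannot be told apart from what they share through *GSE9*.

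*GSE9* is a gene of grain shape, which in rice is set largely by the spikelet hull, the pair of bracts that encloses the flower and later the grain. A panicle ahead of flowering holds hull tissue, floral organs and anthers in which the tapetum, a cell layer lining the pollen sac, feeds the developing pollen and contributes material to its wall. Many genes of the tapetum and of pollen are active only for a short time. In RNA of whole panicles, fewer cells of a type and less RNA per cell cannot be told apart. The table names genes by identifier alone, so members are given by identifier, with a role only for *OsGASR9* and for 3 members of a marker list of anther tissue.

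Library sums were 635209 to 650991 FPKM for ZH11-OE-1, 679258 to 701261 FPKM for ZH11-Cas9-1 and 651917 to 676384 FPKM for ZH11. Depth relative to ZH11 replicate 1, read from the steps of low values, varied between 0.931 and 1.07. A list of 13 floral identity genes, which mark panicle tissue, was detected in every library and summed to 1657 to 1937 FPKM in ZH11-OE-1, 1701 to 1836 FPKM in ZH11-Cas9-1 and 1763 to 1969 FPKM in ZH11. None of the 13 met the rule. The level of *GSE9* itself was not analysed here.

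Of the 19376 rows that averaged 2 FPKM or more, 576 exceeded ZH11 by at least 0.6 in ZH11-OE-1, 946 were so in ZH11-Cas9-1, and 306 were so in both. Of these 306, 105 had a wild-type library that overlapped the transgenic ones and 201 had none. The 199 genes kept made up 1.03 percent of the 19376 rows. Their differences on the log2(FPKM + 1) scale ran from 0.61 to 5.37 in ZH11-OE-1, with a median of 1.09, and from 0.60 to 8.25 in ZH11-Cas9-1, with a median of 1.12. Over the 21780 genes that averaged 1 FPKM or more, the medians were -0.04 in ZH11-OE-1 and -0.02 in ZH11-Cas9-1. The mean FPKM was at least 2 times that of ZH11 for 137 members in ZH11-OE-1, for 133 in ZH11-Cas9-1 and for 110 in both.

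The conditions cut through a continuous range of values. Just inside the mean of 2 FPKM stood Os01g0672600 at 2.02 and Os01g0209700 at 2.09, and just outside stood Os02g0772100 at 1.995 and Os06g0536333 at 1.60. For ZH11-OE-1 against ZH11, Os07g0217800 and Os02g0830300 were inside at 0.61 each, and Os04g0233400 and Os01g0121950 were outside at 0.59 each. For ZH11-Cas9-1 against ZH11, Os08g0189600 at 0.604 and Os08g0250300 at 0.608 were inside, and Os01g0703300 at 0.597 and Os03g0119100 at 0.596 were outside. The ratio of the lowest transgenic library to the highest ZH11 library was 1.004 in Os12g0131900 and 1.02 in Os02g0110000, which were members, and 0.9995 in Os03g0570100 and 0.998 in Os03g0663900, which were not. Over all members this ratio had a median of 1.24, and it was at least 2 in 29 of them, so most members cleared the wild type by a narrow margin.

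**Figure D1:**
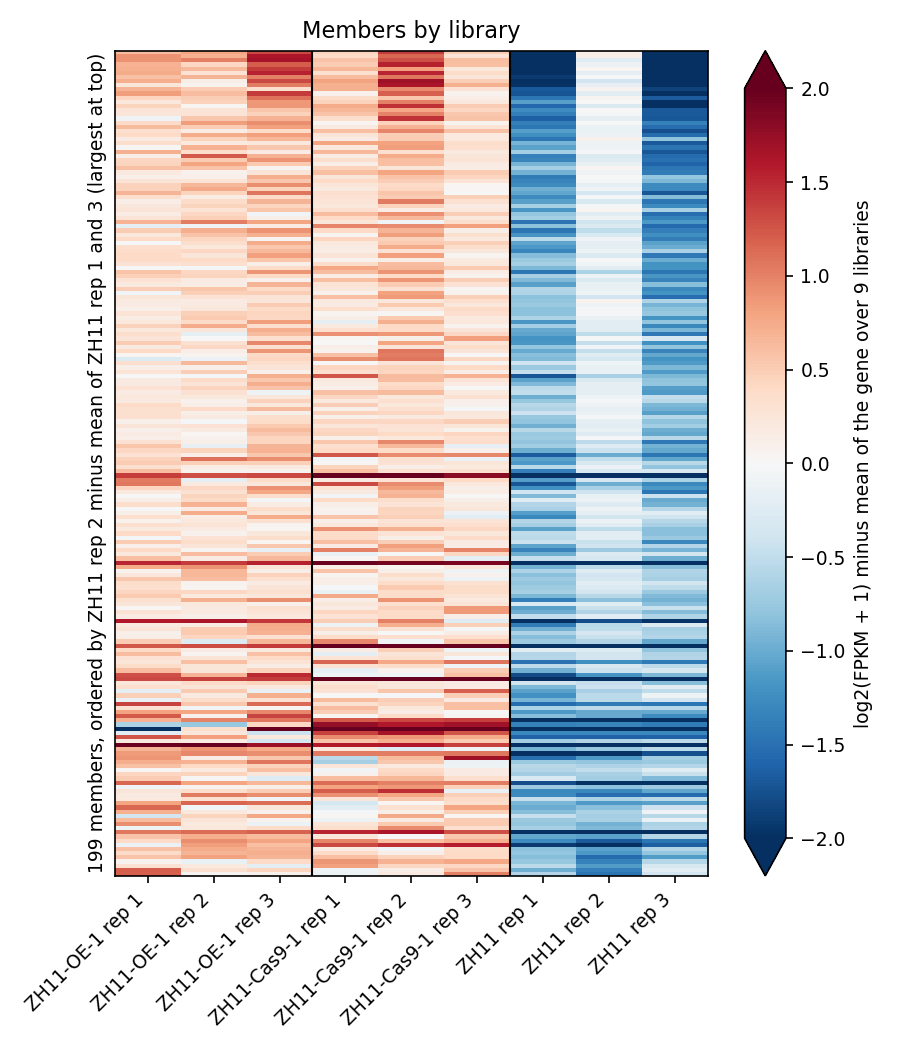
Levels of the 199 genes in each library, as log2(FPKM + 1) minus the mean of that gene over the 9 libraries, with red above and blue below the mean and the scale ended at 2 either way. Rows run from the genes in which ZH11 replicate 2 stood farthest above the other ZH11 libraries (top) downwards, and the middle ZH11 column is pale over the upper part of the plot.

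The clearest members were nearly silent in the wild type. In 12 members every ZH11 library was under 0.5 FPKM, which was true of 6.03 percent of the members and 0.234 percent of the 21780 genes. The rule takes genes that are low in ZH11, and genes so low there pass a minimum mean only through the transgenic libraries, so these shares are descriptions. For all 12, ZH11-Cas9-1 had the greater mean of log2(FPKM + 1), but the gap was uneven. ZH11-OE-1 minus ZH11-Cas9-1 ran from -4.02 in Os03g0115800 to -0.01 in Os06g0324150. Mean FPKM of Os06g0324150 had the reverse order, at 4.43 in ZH11-OE-1 and 4.33 in ZH11-Cas9-1. In the test between the lines given below, 6 of the 12 did not pass. Of all genes tested, 46.4 percent had the higher mean in ZH11-OE-1. The FPKM of 7 of the 12 genes are given by library below because a difference of log2(FPKM + 1) understates the change of a gene near 0.

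Os03g0115800 had 2.53, 22.5 and 85.9 FPKM in ZH11-OE-1 and 351, 300 and 290 FPKM in ZH11-Cas9-1, against 0.0457, 0.0462 and 0 FPKM in ZH11. It was high in all ZH11-Cas9-1 libraries, close to 0 in all of ZH11, and spread widely over the ZH11-OE-1 libraries. The difference from ZH11 was 4.23 in ZH11-OE-1 and 8.25 in ZH11-Cas9-1, the highest of all members in the knockout line.

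A pair of genes on different chromosomes had nearly the same profile. Os03g0629800 had 27.9, 29.4 and 31.2 FPKM in ZH11-OE-1 and 55.6, 52.0 and 51.7 FPKM in ZH11-Cas9-1, against 0.0615, 0.249 and 0.0597 FPKM in ZH11. Os01g0262401 had 27.5, 28.6 and 29.3 FPKM in ZH11-OE-1 and 50.6, 47.5 and 47.0 FPKM in ZH11-Cas9-1, against 0, 0.124 and 0 FPKM in ZH11. In both genes the 3 genotypes formed separate levels with little spread, ZH11 at the bottom, ZH11-OE-1 in the middle and ZH11-Cas9-1 at the top. The rule had set ZH11 at the bottom, and ZH11-OE-1 lay wholly below ZH11-Cas9-1 in 25.1 percent of all genes tested.

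Os01g0356951 had 13.1, 13.8 and 14.4 FPKM in ZH11-OE-1 and 18.5, 20.2 and 15.8 FPKM in ZH11-Cas9-1, against 0.103, 0 and 0.301 FPKM in ZH11. Os03g0582900 had 7.48, 9.47 and 9.85 FPKM in ZH11-OE-1 and 11.3, 12.2 and 12.6 FPKM in ZH11-Cas9-1, against 0.073, 0.148 and 0.142 FPKM in ZH11. Neither overlapped between any 2 genotypes, but the rule had set both lines above ZH11. Over all genes tested, ZH11-OE-1 lay wholly below ZH11-Cas9-1 in 25.1 percent. A pair of members was listed at 0 in every ZH11 library: Os03g0375833 had 1.13, 1.86 and 0.820 FPKM in ZH11-OE-1 and 5.35, 6.80 and 4.84 FPKM in ZH11-Cas9-1. The other, Os01g0692400, had 6.40, 4.44 and 2.55 FPKM in ZH11-OE-1 and 4.94, 4.63 and 4.17 FPKM in ZH11-Cas9-1, so here the lines overlapped.

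**Figure D2:**
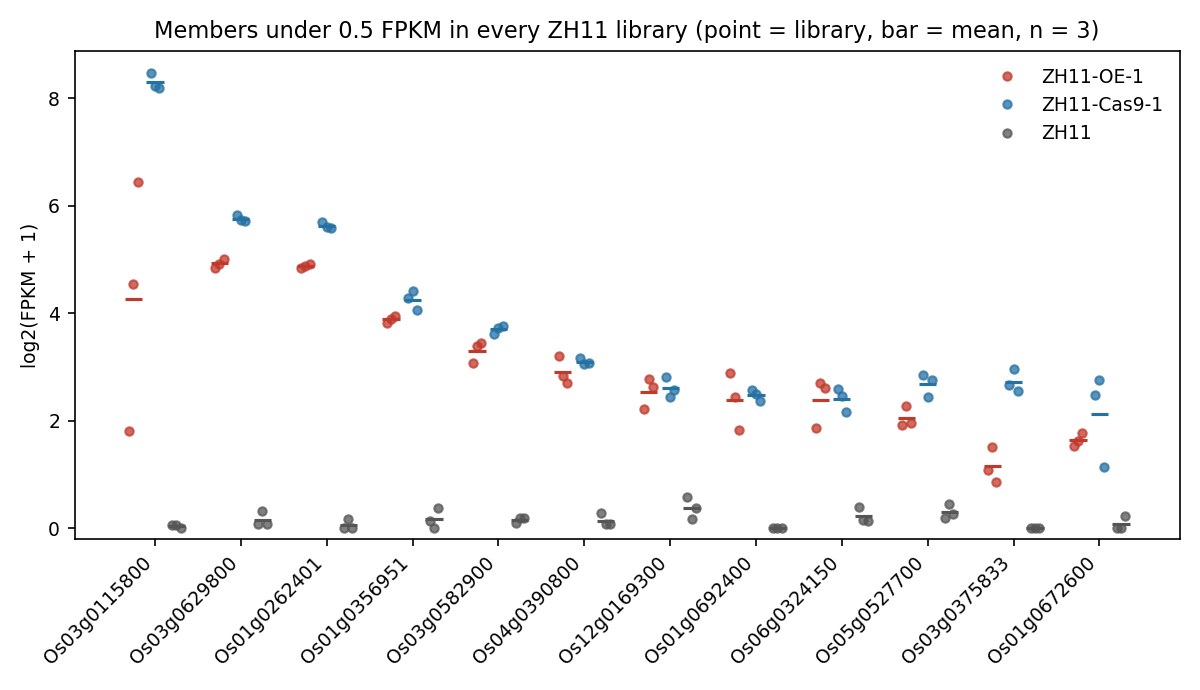
Level in each library, as log2(FPKM + 1), of the 12 genes that were under 0.5 FPKM in every ZH11 library, with ZH11-OE-1 left of ZH11-Cas9-1 and ZH11 for each gene and bars at the mean of 3 libraries. ZH11 lies along the bottom throughout, and Os03g0115800 shows the wide spread of ZH11-OE-1, from 2.53 to 85.9 FPKM.

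A further 3 genes were low but measurable in ZH11 and high in both lines. Os03g0299700 had 123, 111 and 123 FPKM in ZH11-OE-1 and 167, 160 and 156 FPKM in ZH11-Cas9-1, against 3.32, 3.77 and 2.18 FPKM in ZH11. Os01g0537250 had 78.0, 73.3 and 75 FPKM in ZH11-OE-1 and 129, 134 and 106 FPKM in ZH11-Cas9-1, against 1.87, 2.83 and 1.44 FPKM in ZH11. Both genes kept the order seen above, with ZH11-Cas9-1 highest and no overlap between the lines, as in 25.1 percent of all genes. Os07g0153150 turned the lines round, with 65.8, 71.4 and 55.7 FPKM in ZH11-OE-1 and 50.2, 50.7 and 43.1 FPKM in ZH11-Cas9-1, against 0.382, 0.567 and 0.791 FPKM in ZH11. Its difference of 5.37 from ZH11 was the highest of all members in ZH11-OE-1.

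At the other end of the range, abundant transcripts differed by less. In 44 members the highest ZH11 library reached at least 50 FPKM, in 75 it lay between 5 and 50 FPKM, and in 68 between 0.5 and 5 FPKM. The mean over the 9 libraries ran from 2.02 to 1466 FPKM with a median of 13.7, against a median of 10.8 FPKM over all 21780 genes. Os09g0525500, the highest, averaged 1509 ± 115 FPKM in ZH11-OE-1 and 2111 ± 298 FPKM in ZH11-Cas9-1, against 777.5 ± 285 FPKM in ZH11 (SD, n = 3 each). Os08g0546300 averaged 1451 ± 204 FPKM in ZH11-OE-1 and 1853 ± 292 FPKM in ZH11-Cas9-1, against 904 ± 286 FPKM in ZH11 (SD, n = 3 each). In both of these the 3 ZH11 libraries were spread widely, with replicate 2 the highest and replicate 3 the lowest, at 1086 and 523 FPKM in the first gene and 1170 and 602 FPKM in the second.

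Os05g0407100 had 1377, 1063 and 936 FPKM in ZH11-OE-1 and 824, 989 and 1266 FPKM in ZH11-Cas9-1, against 527, 565 and 809 FPKM in ZH11. The gap between the groups was here only that between 824 and 809 FPKM. Os07g0655800 averaged 991.5 ± 83.3 FPKM in ZH11-OE-1 and 1125 ± 95.5 FPKM in ZH11-Cas9-1, against 619.6 ± 195 FPKM in ZH11 (SD, n = 3 each). Os01g0822900 averaged 833.8 ± 85.1 FPKM in ZH11-OE-1 and 778.8 ± 15.6 FPKM in ZH11-Cas9-1, against 433.5 ± 118 FPKM in ZH11 (SD, n = 3 each). Os10g0484800, the last of the 6 most abundant, averaged 622.2 ± 80.6 FPKM in ZH11-OE-1 and 589.7 ± 88.6 FPKM in ZH11-Cas9-1, against 320 ± 113 FPKM in ZH11 (SD, n = 3 each). None of these 6 passed the test between the lines given below.

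The study's list of grain shape regulators gave 58 names that each matched 1 row, and 1 of these was a member. The rule took 1.03 percent of the rows averaging 2 FPKM or more. The single member with a name was *OsGASR9* (Os07g0592000), of a family of small proteins whose transcripts respond to gibberellin. It had 34.8, 34.1 and 33.7 FPKM in ZH11-OE-1 and 24.6, 29.7 and 28.6 FPKM in ZH11-Cas9-1, against 10.3, 19.2 and 16.0 FPKM in ZH11. The ZH11-OE-1 libraries lay above all ZH11-Cas9-1 libraries, as in 18.8 percent of all genes tested, and the rule had set both lines above ZH11. On the log2 scale ZH11-OE-1 stood 0.30 above ZH11-Cas9-1 (SE 0.18), which did not pass the test (limma, adjusted p = 0.229).

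Most of the other members shared a spread among the ZH11 libraries. ZH11 replicate 2 was the highest of its 3 libraries in 151 members (75.9 percent), whereas it was highest in 36.6 percent of all genes tested. It was at least 1.5 times both other ZH11 libraries in 80 members (40.2 percent), whereas this was so in 593 genes (2.72 percent) of all. ZH11 replicate 1 was highest in 15 members and replicate 3 in 31. The rule takes the highest ZH11 library as its limit, so the spread in ZH11 is not independent of it, and these shares are descriptions.

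The libraries of the 2 lines, whose order the rule did not use, were uneven as well. ZH11-OE-1 replicate 3 was highest of its 3 in 107 members (53.8 percent, against 42.6 percent of all genes), and ZH11-Cas9-1 replicate 2 in 116 members (58.3 percent, against 31.8 percent). Replicate 2 was the highest in both ZH11-Cas9-1 and ZH11 in 98 members, or 49.2 percent, against 14.5 percent of all genes. The median coefficient of variation of the members was 15.9 percent in ZH11-OE-1, 15.8 percent in ZH11-Cas9-1 and 35.4 percent in ZH11, and over all genes tested it was 11.0, 10.4 and 12.1 percent.

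**Figure D3:**
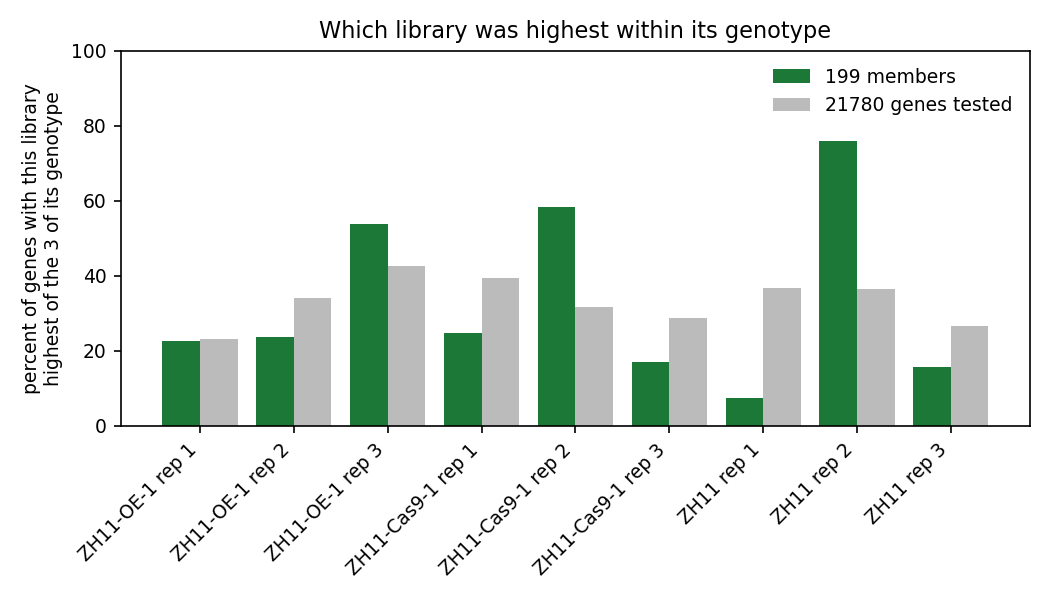
Share of genes (percent) in which a library was the highest of the 3 of its genotype, for the 199 members (green) and the 21780 genes tested (grey). Within each genotype one green bar stands well above the others: ZH11-OE-1 replicate 3 at 53.8, ZH11-Cas9-1 replicate 2 at 58.3 and ZH11 replicate 2 at 75.9 percent.

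Os04g0677600 was an abundant example. It had 339, 298 and 556 FPKM in ZH11-OE-1 and 235, 402 and 221 FPKM in ZH11-Cas9-1, against 32.4, 195 and 26.4 FPKM in ZH11. Within each genotype 1 library stood far above the others, and ZH11 replicate 2 came close to the lowest ZH11-Cas9-1 library. Os08g0545800 had 33.1, 35.7 and 56.2 FPKM in ZH11-OE-1 and 26.3, 43.7 and 27.2 FPKM in ZH11-Cas9-1, against 2.26, 14.5 and 0.858 FPKM in ZH11. Os03g0687400 had 18.2, 11.7 and 28.2 FPKM in ZH11-OE-1 and 19.4, 36.9 and 15.3 FPKM in ZH11-Cas9-1, against 1.93, 7.97 and 0.681 FPKM in ZH11. The same libraries were high in all 3 genes, namely replicate 3 of ZH11-OE-1 and replicate 2 of both ZH11-Cas9-1 and ZH11. Os04g0677600 was chosen as an example after its values were seen.

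The 80 members with ZH11 replicate 2 at least 1.5 times both others were set apart after seeing their values, and 3 of them were under 0.5 FPKM in all ZH11 libraries. Their median level was 28.8, 29.0 and 32.4 FPKM in ZH11-OE-1 and 29.4, 37.2 and 30.2 FPKM in ZH11-Cas9-1, against 6.62, 15.0 and 5.72 FPKM in ZH11. The other 119 members had medians of 11.3, 12.8 and 13.1 FPKM in ZH11-OE-1 and 12.8, 13.7 and 12.6 FPKM in ZH11-Cas9-1, against 4.25, 4.91 and 4.45 FPKM in ZH11. The contrast between these medians restates the split, and ZH11 replicate 2 was still the highest ZH11 library in 71 of the 119 (59.7 percent, against 36.6 percent of all genes). Of the 80, ZH11-Cas9-1 replicate 2 was highest of its genotype in 60 and ZH11-OE-1 replicate 3 in 58, and of the 119 in 56 and 49.

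Summed over all members, the 199 genes took 2.75, 2.79 and 2.78 percent of the FPKM of the ZH11-OE-1 libraries and 2.63, 2.98 and 2.61 percent in ZH11-Cas9-1, against 1.16, 1.72 and 1.03 percent in ZH11. ZH11 replicate 2 lay between the lines and the other ZH11 libraries. Left out of the rule, it let 373 rows pass in place of 199, with 197 of the members kept and 176 rows gained. Without ZH11 replicate 3, 271 rows passed, with 169 members kept. Without any other single library between 189 and 227 rows passed.

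**Figure D4:**
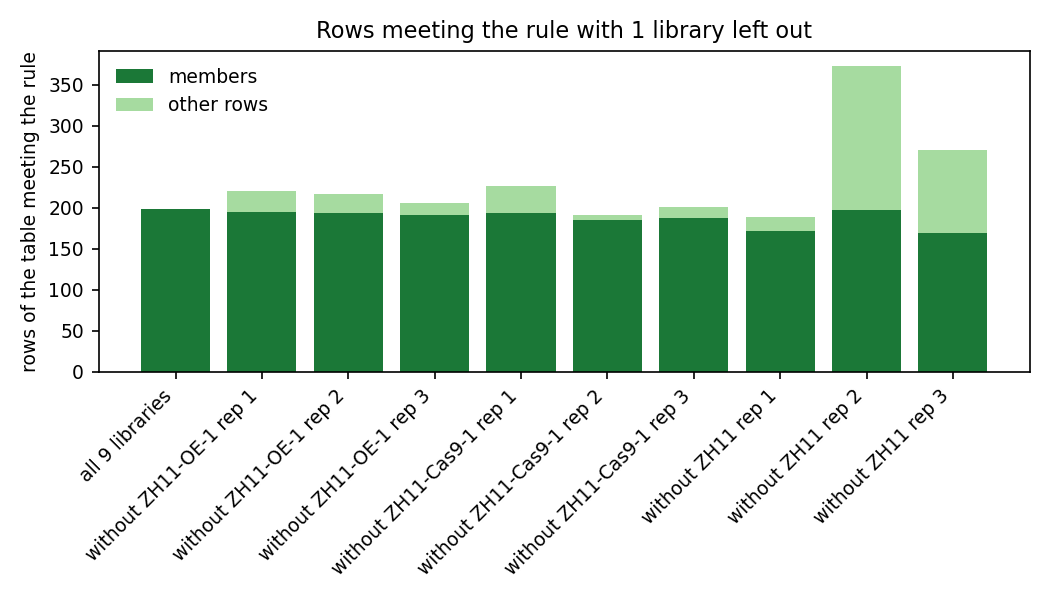
Number of rows that met the rule with all 9 libraries and with 1 library left out, split into members (dark) and rows that are not members (light). Leaving out ZH11 replicate 2 gave 373 rows and ZH11 replicate 3 gave 271, and the other bars lie between 189 and 227.

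Markers of anther tissue were partly among the members. Of 7 genes of the anther tapetum and pollen wall, a list given by identifier from background knowledge, 3 were members. Os08g0131100 had 108, 137 and 114 FPKM in ZH11-OE-1 and 86.9, 120 and 88.4 FPKM in ZH11-Cas9-1, against 41.1, 71.3 and 25.4 FPKM in ZH11. Os03g0168600 had 310, 305 and 294 FPKM in ZH11-OE-1 and 248, 294 and 234 FPKM in ZH11-Cas9-1, against 140, 209 and 98.8 FPKM in ZH11. Os09g0449000 was lower, with 7.42, 7.61 and 9.20 FPKM in ZH11-OE-1 and 7.30, 7.16 and 5.73 FPKM in ZH11-Cas9-1, against 2.2, 3.68 and 2.11 FPKM in ZH11. All 3 were highest, within ZH11, in replicate 2.

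Of the 7 genes, 3 exceeded ZH11 by at least 0.6 in ZH11-OE-1, 4 were so in ZH11-Cas9-1, and none was at 0 in all libraries. Their summed level ran from 2624 to 3241 FPKM in ZH11-OE-1 and from 3020 to 4421 FPKM in ZH11-Cas9-1, against 2686 to 4164 FPKM in ZH11, and most of that sum came from Os11g0582500, which is no member. Os11g0582500 differed from ZH11 by -0.38 in ZH11-OE-1 and by 0.07 in ZH11-Cas9-1. The other 6 genes had higher means in both lines than in ZH11. Without Os11g0582500 the list summed to 527 to 554 FPKM in ZH11-OE-1 and 438 to 561 FPKM in ZH11-Cas9-1. In ZH11 it then summed to 186 to 379 FPKM. These 6 genes include the 3 members, which the rule chose for lying above ZH11 with no overlap. The lack of overlap in this sum therefore follows in part from the rule and carries no test. Of 5 genes of green leaf photosynthesis none was a member, and none was at least 0.6 higher in either line. They summed to 2937 to 3686 FPKM in ZH11-OE-1 and 5280 to 5865 FPKM in ZH11-Cas9-1, against 4922 to 6913 FPKM in ZH11. Whether the share of anther or other cells in the sampled panicles had a part in the levels of the members was not tested.

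The difference between the 2 lines asks whether the same gene stood at different levels in them. Each is 1 line with its own construct, so such a difference cannot be assigned to *GSE9* alone. The rule did not use this difference directly. It did require both lines to lie above ZH11, so genes raised in only a single line were left out. The median and the shares of members called are therefore not independent of the rule, and are descriptions beside those of all genes. The median difference of the members, ZH11-OE-1 minus ZH11-Cas9-1, was 0.00, and over all genes it was -0.03. ZH11-OE-1 had the higher mean in 101 members (50.8 percent), against 46.4 percent of all genes. With limma at an adjusted p under 0.05 over all 21780 genes, ZH11-OE-1 was above ZH11-Cas9-1 in 9 members and below it in 18, which was 4.52 and 9.05 percent of the members. Of the 18, Os03g0375833, Os05g0527700 and Os10g0432200 reached a mean of 2 FPKM only through the ZH11-Cas9-1 libraries, so their differences are given with no test. Of all genes, 8.09 percent were called higher and 15.8 percent lower. The remaining 172 members did not pass, which does not show that they were equal in the 2 lines.

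The balance between the directions differed with the scaling of the libraries: 16 members were higher and 15 lower after quantile normalization (2966 and 2812 of all genes), and 13 and 18 after median-of-ratios scaling (2490 and 3154 of all genes). The spread in the test came from all 9 libraries, so it includes the ZH11 libraries that the rule had held low. From the libraries of the 2 lines alone, 15 members (7.54 percent) were higher and 26 (13.1 percent) lower, against 8.83 and 17.2 percent of all genes. Counts also fell when a library was left out, to 4 higher and 8 lower without ZH11-Cas9-1 replicate 1, to 10 lower without ZH11-OE-1 replicate 2 and to 11 lower without ZH11-Cas9-1 replicate 2. The shares of all genes called lower fell too, to 9.31, 8.48 and 8.89 percent in that order. Without ZH11-OE-1 replicate 2, 3.02 percent of the members were called higher, against 2.24 percent of all genes, so the order of these shares turned. In 23 members all ZH11-OE-1 libraries lay above all ZH11-Cas9-1 libraries, where 18.8 percent of all genes did, and in 30 members all lay below, where 25.1 percent of all genes did.

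Of the 12 members that were nearly silent in ZH11, 6 were among the 18 called lower, where 15.8 percent of all genes were called lower. These 12 were set apart by the ZH11 values that the rule used, so the count is a description. For Os03g0375833 and Os05g0527700 among the 6 the call is not used, as said above. Os03g0115800 was lower by the widest margin, with a log2 fold change of -4.02 (SE 0.83, limma adjusted p = 0.00821). The log2 fold change was -0.83 in Os03g0629800 (SE 0.10, limma adjusted p = 8.36e-04) and -0.74 in Os01g0262401 (SE 0.09, limma adjusted p = 9.32e-04). The SE of these genes draw on the ZH11 libraries too, which the rule held low and which varied little near 0. Each of these genes also passed when the 2 lines were fitted alone. Os03g0582900 was also lower, with a log2 fold change of -0.40, and the differences of Os03g0375833 and Os05g0527700 were -1.57 and -0.63. Os03g0582900 no longer passed without ZH11 replicate 2, any ZH11-Cas9-1 library or ZH11-OE-1 replicate 1 or 2 (limma adjusted p up to 0.117). With a pseudocount of 0.1 neither Os01g0262401 (limma adjusted p = 0.0606) nor Os03g0582900 (0.125) passed, and Os03g0582900 was also lost with no filter and with quantile normalization.

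Outside this group, Os10g0432200 had 1.46, 1.25 and 4.10 FPKM in ZH11-OE-1 and 12.0, 10.6 and 11.2 FPKM in ZH11-Cas9-1, against 0.502, 0.528 and 0.448 FPKM in ZH11. On the FPKM scale its ZH11-OE-1 libraries were nearer to ZH11 than to ZH11-Cas9-1. On the log2 scale the mean of ZH11-OE-1 lay 1.03 above ZH11, and the difference between the lines was -2.01, with no test as given above. Os10g0340100 had 6.43, 13.4 and 11.2 FPKM in ZH11-OE-1 and 18.9, 21.1 and 22.7 FPKM in ZH11-Cas9-1, against 1.13, 0.855 and 1.57 FPKM in ZH11, and between the lines its log2 fold change was -1.0 (SE 0.22, limma adjusted p = 0.0104). Os05g0573600 had 18.0, 19.4 and 23.0 FPKM in ZH11-OE-1 and 41.3, 40.1 and 36.9 FPKM in ZH11-Cas9-1, against 11.1, 16.6 and 6.33 FPKM in ZH11. Between the lines its log2 fold change was -0.94 (SE 0.25, limma adjusted p = 0.0218). In each of these 3 genes ZH11-Cas9-1 was the highest genotype. Its libraries overlapped with none of ZH11-OE-1, as in 25.1 percent of all genes, and the rule had set both lines above ZH11. Os01g0510200, Os03g0724600, Os01g0537250 and Os03g0299700 were also called lower, with log2 fold changes of -0.80, -0.79, -0.69 and -0.43. The calls of Os05g0573600 (limma adjusted p up to 0.0744) and Os03g0724600 (up to 0.149) were lost without replicate 1 or 2 of either line, and the second also without ZH11 replicate 1 and with a replicate block (limma adjusted p = 0.0524). That of Os01g0510200 was lost without ZH11-OE-1 replicate 2 or ZH11-Cas9-1 replicate 1 (limma adjusted p up to 0.0558), and that of Os03g0299700 without any single library of the lines (limma adjusted p up to 0.125). Os03g0724600 and Os03g0299700 were also lost with a pseudocount of 0.1, with no filter and with no trend, and Os03g0299700 with quantile normalization.

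Among the 9 members higher in ZH11-OE-1, Os04g0422300 had 20.9, 21.4 and 18.2 FPKM in ZH11-OE-1 and 9.14, 13.5 and 5.08 FPKM in ZH11-Cas9-1, against 0.569, 1.11 and 0.850 FPKM in ZH11. Its log2 fold change between the lines was 1.13 (SE 0.26, limma adjusted p = 0.0125). Os11g0282700 had 7.04, 9.40 and 9.04 FPKM in ZH11-OE-1 and 2.63, 3.77 and 4.93 FPKM in ZH11-Cas9-1, against 1.46, 1.11 and 1.18 FPKM in ZH11, and its log2 fold change was 1.01 (SE 0.18, limma adjusted p = 0.00464). Os04g0161400 had 9.80, 6.08 and 11.4 FPKM in ZH11-OE-1 and 3.08, 3.12 and 5.64 FPKM in ZH11-Cas9-1, against 0.269, 0.953 and 1.37 FPKM in ZH11, and its log2 fold change was 1.03 (SE 0.28, limma adjusted p = 0.0264). In these genes the overexpression line was the highest, and the knockout line lay between it and ZH11. Os07g0110000, Os08g0246800, Os10g0524500 and Os04g0387300 were higher by log2 fold changes of 0.91, 0.80, 0.78 and 0.64, and Os10g0149000 and Os07g0153150 by 0.51 and 0.41. Os04g0422300 narrowly missed the threshold without ZH11-OE-1 replicate 2 (limma adjusted p = 0.0516). Leaving out ZH11-Cas9-1 replicate 1 ended the calls of Os04g0161400, Os07g0110000, Os10g0524500, Os10g0149000 and Os07g0153150, and for each of these at least 3 other libraries of the lines did so as well (limma adjusted p up to 0.0933, 0.0756, 0.0980, 0.105 and 0.152 in that order). With a replicate block Os07g0153150 did not pass either (limma adjusted p = 0.0529), nor with a pseudocount of 0.1, no filter or no trend. Os04g0161400 was also lost with a pseudocount of 0.1 and with no filter, and Os10g0149000 with no filter. Os11g0282700, Os08g0246800 and Os04g0387300 passed without any 1 library.

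**Figure D5:**
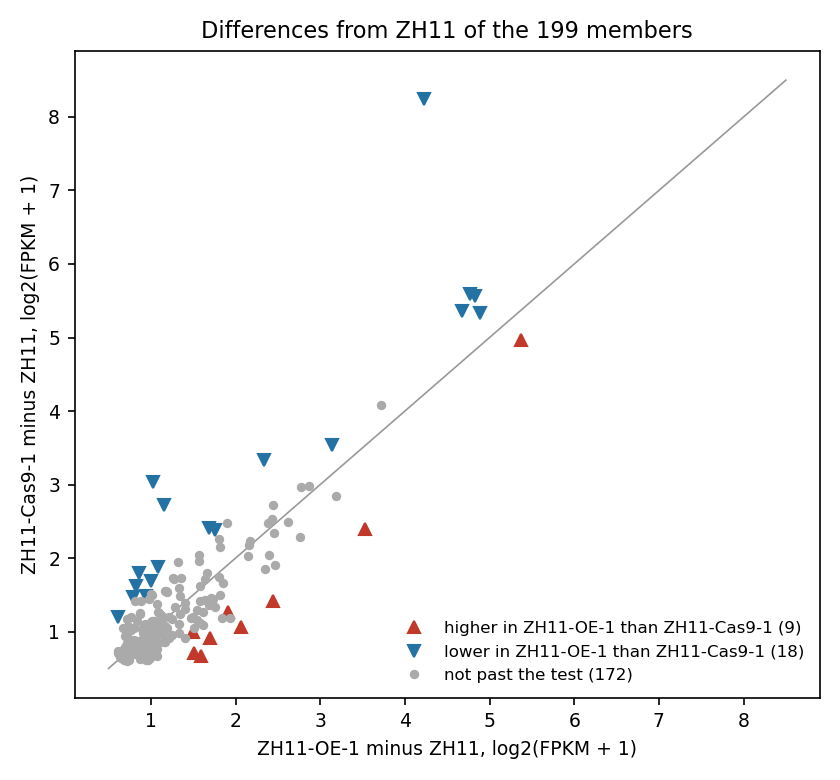
Difference of each of the 199 members from ZH11 in ZH11-OE-1 (horizontal) and in ZH11-Cas9-1 (vertical), both in log2(FPKM + 1), with the line of equal differences in grey. Upward red triangles mark the 9 members with ZH11-OE-1 above ZH11-Cas9-1 and downward blue triangles the 18 with it below, by limma. The 18 include Os03g0375833, Os05g0527700 and Os10g0432200, whose differences are given with no test. Both axes share the ZH11 libraries, so the placing of points along the line carries no test.

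The same fit set the members against ZH11, where the rule had already chosen them. In ZH11-OE-1, 189 members were higher at an adjusted p under 0.05 by limma, where 3.76 percent of all genes were, and in ZH11-Cas9-1 167 were, where 5.0 percent of all genes were. These counts follow from the choice of members and say nothing further about them. Even so they moved with single libraries. In ZH11-OE-1 the count was 104 without ZH11 replicate 1, 116 without ZH11-OE-1 replicate 2 and 117 without ZH11-OE-1 replicate 3, where the counts of all genes were 244, 251 and 360 in place of 820. In ZH11-Cas9-1 it was 64 without ZH11-Cas9-1 replicate 2, 84 without ZH11 replicate 3 and 109 without ZH11 replicate 1, where the counts of all genes were 229, 344 and 793 in place of 1090, and from these 2 genotypes alone it was 111, against 619 of all genes.

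Position entered the rule only through the range of identifiers left out on chromosome 7. Members were on all chromosomes, with 35 on chromosome 3 (17.6 percent, against 13.6 percent of the genes tested), 29 on chromosome 1 (14.6 against 14.1 percent), 22 on chromosome 8 (11.1 against 6.81 percent) and 9 on chromosome 6 (4.52 against 7.81 percent). With at most 5 rows between them in identifier order, 23 members fell into 11 groups, of which 10 held 2 members and 1 held 3. Direct neighbours of members that were not members themselves, 232 genes in the test, had median differences from ZH11 of -0.02 in ZH11-OE-1 and 0.01 in ZH11-Cas9-1, close to those of all genes.

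The group of 3 lay on chromosome 3. Os03g0683300 had 223, 206 and 234 FPKM in ZH11-OE-1 and 296, 338 and 278 FPKM in ZH11-Cas9-1, against 101, 185 and 73.1 FPKM in ZH11. Os03g0683500 had 205, 180 and 209 FPKM in ZH11-OE-1 and 247, 321 and 246 FPKM in ZH11-Cas9-1, against 75.6, 148 and 47.6 FPKM in ZH11. Os03g0683800 was less abundant, with 17.9, 17.8 and 23.7 FPKM in ZH11-OE-1 and 31.5, 28.8 and 26.2 FPKM in ZH11-Cas9-1, against 9.23, 15.5 and 7.33 FPKM in ZH11. All 3 were highest in ZH11-Cas9-1 with no overlap between the lines, as in 25.1 percent of all genes, but none passed between the lines (limma adjusted p = 0.216, 0.316 and 0.0971). ZH11 replicate 2 was the highest ZH11 library in each.

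Adjacent members did not always move alike. Os08g0246800 had 35.3, 40.7 and 37.0 FPKM in ZH11-OE-1 and 25.3, 18.0 and 20.9 FPKM in ZH11-Cas9-1, against 10.9, 12.4 and 14.6 FPKM in ZH11, whereas its neighbour Os08g0246700 had 26.4, 21.0 and 21.4 FPKM in ZH11-OE-1 and 31.4, 23.7 and 22.2 FPKM in ZH11-Cas9-1, against 9.25, 12.0 and 9.36 FPKM in ZH11. In the first, ZH11-OE-1 exceeded ZH11-Cas9-1 (limma adjusted p = 0.00359) and the second, with overlapping lines, did not pass (limma adjusted p = 0.487). Os04g0422200, next to Os04g0422300, had 5.61, 4.88 and 4.16 FPKM in ZH11-OE-1 and 5.77, 6.98 and 4.03 FPKM in ZH11-Cas9-1, against 0.288, 3.35 and 0.140 FPKM in ZH11. In this gene the lines overlapped and ZH11 replicate 2 stood far above the other ZH11 libraries, unlike in its neighbour. Neighbours can share sequence or overlap, and no source used here says how the authors' counting treated such reads. The remaining adjacent pairs were Os03g0263600 with Os03g0263700, Os03g0687400 with Os03g0687700, and Os12g0178250 with Os12g0178300.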

How the data were processed

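RNA-seq libraries of young panicles were taken from 3 genotypes with 3 libraries each, grouped by the sample labels. The deposited values are FPKM per gene, which the authors made by aligning reads to IRGSP-1.0 (HISAT2) and counting them per gene with featureCounts. No source used here says how counts became FPKM or whether the strand was used. The authors' DESeq2 step was not repeated, since FPKM are not counts. Read totals were not used, so precision rests on the spread between 3 libraries, which may be partly technical.

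The values were put on the log2(FPKM + 1) scale and fitted in limma 3.58.1 (R 4.3.3) with a mean per genotype over all 9 libraries and a trended spread. Tests were two-sided, ran over genes averaging 1 FPKM or more, and used a threshold of 0.05 after Benjamini-Hochberg adjustment. A permutation test of 3 against 3 cannot go below 0.1, so none was run. Tables and plots used Python 3.11.15, numpy 2.4.6, pandas 2.3.3 and matplotlib 3.10.9. The fit was tested on simulated data.

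The members and lists were chosen with earlier results of these data known. Genes named in the text were the 8 members with the largest difference in each line and the 6 most abundant. Up to 8 called per direction between the lines were also named. So were some, not all, of the members within 5 rows of another, a member named in the study's gene list, and those nearest each threshold. Other called or example genes were chosen after their values were seen. *OsGASR9* was tied to its row because the means and SDs listed for it fit that row alone within 0.0051 FPKM. Groups by gene description, promoter motifs and sequences were not analysed here, since the reference table, whose 39387 rows share 1 identifier with the data, matched 0 members.

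Same-numbered libraries of ZH11-Cas9-1 and ZH11 deviated together across genes (r 0.234 to 0.316), so the numbers were taken as a possible pairing of these groups. The fit has no block, and the blocked fit is an alternative. Those of ZH11-OE-1 and ZH11 (r -0.279 to 0.0234) and of ZH11-OE-1 and ZH11-Cas9-1 (r -0.0649 to 0.0147) did not, and ZH11-OE-1 replicate 3 and ZH11 replicate 2, with different numbers, had r 0.274. The alternatives left out each library or the trend, added a replicate block, fitted the 2 groups alone, rescaled the values by median-of-ratios or quantiles, set the pseudocount to 0.1, dropped the filter, or raised it to 5 FPKM.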

Additional observations from a re-analysis of the deposited data

How the results depend on the processing

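Between the lines, the counts of members with ZH11-OE-1 above and below ZH11-Cas9-1 were 16 and 15 with quantile normalization and 15 and 26 from these 2 groups alone, in place of 9 and 18. Leaving out 1 library gave 4 to 13 members higher and 8 to 19 lower, and over all genes 488 to 1998 higher and 1850 to 3644 lower. Over all genes quantile normalization gave 2966 higher and 2812 lower, against 1761 and 3437, which moved the split toward higher genes. Of the 27 members called, 10 passed in every alternative in which they were tested, 17 lost the call in at least 1, and none changed sign. The 27 include Os03g0375833, Os05g0527700 and Os10g0432200, whose calls are not used, and Os03g0375833 and Os10g0432200 are among the 10. Against ZH11, leaving out 1 library gave 104 to 189 members and 244 to 862 genes higher in ZH11-OE-1, and 64 to 180 members and 229 to 1299 genes higher in ZH11-Cas9-1. In ZH11-Cas9-1 the fit of the 2 groups alone gave 111 members and 619 genes, and no filter gave 682 genes. The replicate block gave 9 members higher and 18 lower between the lines, 195 members higher in ZH11-OE-1 and 176 in ZH11-Cas9-1 than in ZH11, and moved no count of members by over 1.5 times. Equal counts do not mean the same genes, since Os03g0724600 and Os07g0153150 lost their calls under the block. The rule took 98 rows with a minimum difference of 1, 231 with a pseudocount of 0.1, 224 after median-of-ratios scaling and 152 with a mean of at least 5 FPKM, and 189 to 373 rows with 1 library left out. The causes of these shifts were not tested. FPKM without read totals limit what can be said of genes near 0, and 3 libraries of 1 line per genotype limit every comparison.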
